A study of Homo sapiens with 8 samples.

Results

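The interferon response and antigen presentation genes described here are 37 human genes given as a list: sensors of viral RNA, the transcription factors of interferon signalling, the antiviral proteins they induce, the ISG15 system, and the genes that load and display peptides on MHC class I. They were listed by function with earlier results of these data known, and the rule itself uses no measured value. A probe set was matched for 35 of them, among 17687 genes measured, and STAT2 and HLA-B were not analysed here. Expression was read on 8 Affymetrix Clariom S human arrays, 2 for each of 4 groups. All groups were BE2C cells, a clonal human neuroblastoma line with amplified MYCN. One pair had been given GSK-J4 for 24 h, with 0.1% DMSO for as long as its reference, and another pair had received KDM6B siRNA at 30 nM for 48 h, with control siRNA at that dose and time as its reference. The ester GSK-J4 enters cells, where it is cleaved to an acid that inhibits the histone demethylases of the KDM6 family, and the siRNA lowers the message of one of them, KDM6B. The labels write the GSK-J4 dose as 2.5 mM whereas the study's methods use micromolar doses, so the unit is uncertain and no result rests on it. Replicates are called biological, with nothing said of separate cultures, so p-values measure only the spread between these arrays. The labels do not say which siRNA sequence each KDM6B siRNA array received.

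Type I interferons bind the IFNAR receptor and signal through its JAK kinases to a factor that contains STAT2 and IRF9 and binds the interferon-stimulated response element (ISRE) in promoters. Interferon-gamma has a receptor of its own, and its signal reaches promoters at the gamma-activated sequence (GAS). MHC class I needs B2M as its light chain and the TAP1-TAP2 transporter and tapasin (TAPBP) to be loaded, and NLRC5 drives its transcription. Neuroblastoma cells, those with amplified MYCN above all, are known for little MHC class I on their surface. KDM6B removes the repressive trimethyl mark that PRC2 lays on histone H3.

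The promoters of 4 genes on which the results turn are printed, as RefSeq gives them on GRCh38.p14, to show which of these elements each holds within the window of 250 bases before to 50 bases after its start. The core of the ISRE was searched as GAAANNGAAA on either strand, where the other strand reads TTTCNNTTTC, and the GAS as TTCNNNGAA, which reads the same on both strands. Capitals mark every match. IRF1 and IFIT5 are the members that passed the test with GSK-J4, and OAS1 and OAS3 are neighbours on chromosome 12 that were lower under siRNA without passing it. The windows are IRF1 on the minus strand at chr5:132490724-132491023, IFIT5 on the plus strand at chr10:89414318-89414617, OAS1 on the plus strand at chr12:112906712-112907011 and OAS3 on the plus strand at chr12:112938224-112938523.
IRF1: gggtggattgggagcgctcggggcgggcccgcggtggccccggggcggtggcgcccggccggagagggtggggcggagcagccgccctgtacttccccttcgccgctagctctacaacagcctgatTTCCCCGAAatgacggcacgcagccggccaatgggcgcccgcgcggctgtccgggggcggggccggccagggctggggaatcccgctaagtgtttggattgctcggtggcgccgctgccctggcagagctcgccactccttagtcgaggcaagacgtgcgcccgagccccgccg
IFIT5: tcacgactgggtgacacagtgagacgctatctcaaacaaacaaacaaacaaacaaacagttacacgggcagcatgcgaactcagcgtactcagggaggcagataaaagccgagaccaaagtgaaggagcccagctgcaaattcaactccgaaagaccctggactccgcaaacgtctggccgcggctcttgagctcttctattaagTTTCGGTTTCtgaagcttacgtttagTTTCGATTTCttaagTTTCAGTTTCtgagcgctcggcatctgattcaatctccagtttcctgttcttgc
OAS1: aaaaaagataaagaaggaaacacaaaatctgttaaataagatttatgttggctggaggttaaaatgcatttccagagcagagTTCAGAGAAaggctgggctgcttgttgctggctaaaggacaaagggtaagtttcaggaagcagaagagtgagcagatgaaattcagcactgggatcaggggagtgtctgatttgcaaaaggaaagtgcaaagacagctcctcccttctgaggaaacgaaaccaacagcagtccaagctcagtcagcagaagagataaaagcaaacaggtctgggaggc
OAS3: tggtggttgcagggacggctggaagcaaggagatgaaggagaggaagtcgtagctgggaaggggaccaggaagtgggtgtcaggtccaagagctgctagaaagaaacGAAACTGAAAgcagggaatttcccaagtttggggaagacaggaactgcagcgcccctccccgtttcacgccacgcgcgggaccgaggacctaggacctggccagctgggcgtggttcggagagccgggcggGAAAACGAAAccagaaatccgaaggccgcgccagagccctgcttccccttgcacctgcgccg
IRF1 held no ISRE core and 1 GAS, TTCCCCGAA, from base -124 to base -116 of its start. IFIT5 held 3 ISRE cores, all read on the other strand, the nearest of them across the start from base -4 to base 6. OAS1 held 1 GAS, from base -168 to base -160, and no match to the ISRE core as searched, whereas OAS3 held 2 ISRE cores. The OAS1 window does hold gaaacgaaa, with 1 base between its GAAA repeats where the searched pattern requires 2. The search cannot find a site with that spacing, so it does not show that OAS1 lacks an ISRE. Among the 37 genes, 29 had a promoter in the RefSeq table, with 36 windows between them. The ISRE core was in 25 of these windows (69.4%), in 21 genes, against 1255 of 35116 windows of all genes (3.57%). The GAS was in 10 (27.8%), against 2689 of all (7.66%), and the motifs overlapped each other in 5 of the 36 windows and in 22 of all. A match describes these letters only, and the arrays measured no binding.

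The targeted gene, KDM6B, read 9.41 and 9.18 with GSK-J4 against 8.17 and 8.47 with DMSO, and 7.22 and 5.76 with KDM6B siRNA against 8.27 and 8.35 with control siRNA. On the log2 scale both KDM6B siRNA arrays were below both control siRNA arrays, by 1.83 ± 0.39 (SE, fold 0.282), which did not pass the test across all genes (adjusted p = 0.0878 by limma), and replicate 2 was the lower of the pair. With GSK-J4 it was 0.98 ± 0.39 above DMSO, which did not pass either (adjusted p = 0.25 by limma). Over all genes the SD of the difference between replicates was 0.20 for GSK-J4, 0.226 for DMSO, 0.472 for KDM6B siRNA and 0.187 among control siRNA arrays, while 906 genes were over 1 unit apart in the KDM6B siRNA pair against 3 to 8 in the others. For 4 of the 35 genes the KDM6B siRNA arrays were over 0.5 apart, against 2 in the GSK-J4 pair, 1 in the DMSO pair and 0 in the control siRNA pair. The KDM6B siRNA pair was thus the least alike, and results that turn on either of its arrays are given with and without it. The part of the unequal knockdown in the differences was not tested.

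Many of the genes were not seen above background in these cells under any condition. A gene was counted as above background on an array where its log2 value exceeded the 95th percentile of the 612 negative control probe sets there, which lay between 4.62 and 4.89. On all 8 arrays 15 of the 35 genes (42.9%) were above it, against 70.2% of all genes, and 15 (42.9%) were above it on none, against 20.8% of all genes. Another 5 were above it on some arrays. Per array, 17 to 19 of the 35 were above it, in every group alike, against 73.4% to 77.1% of all genes. With the 99th percentile in its place, 6 were above on all 8 arrays and 25 on none.

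**Figure D1:**
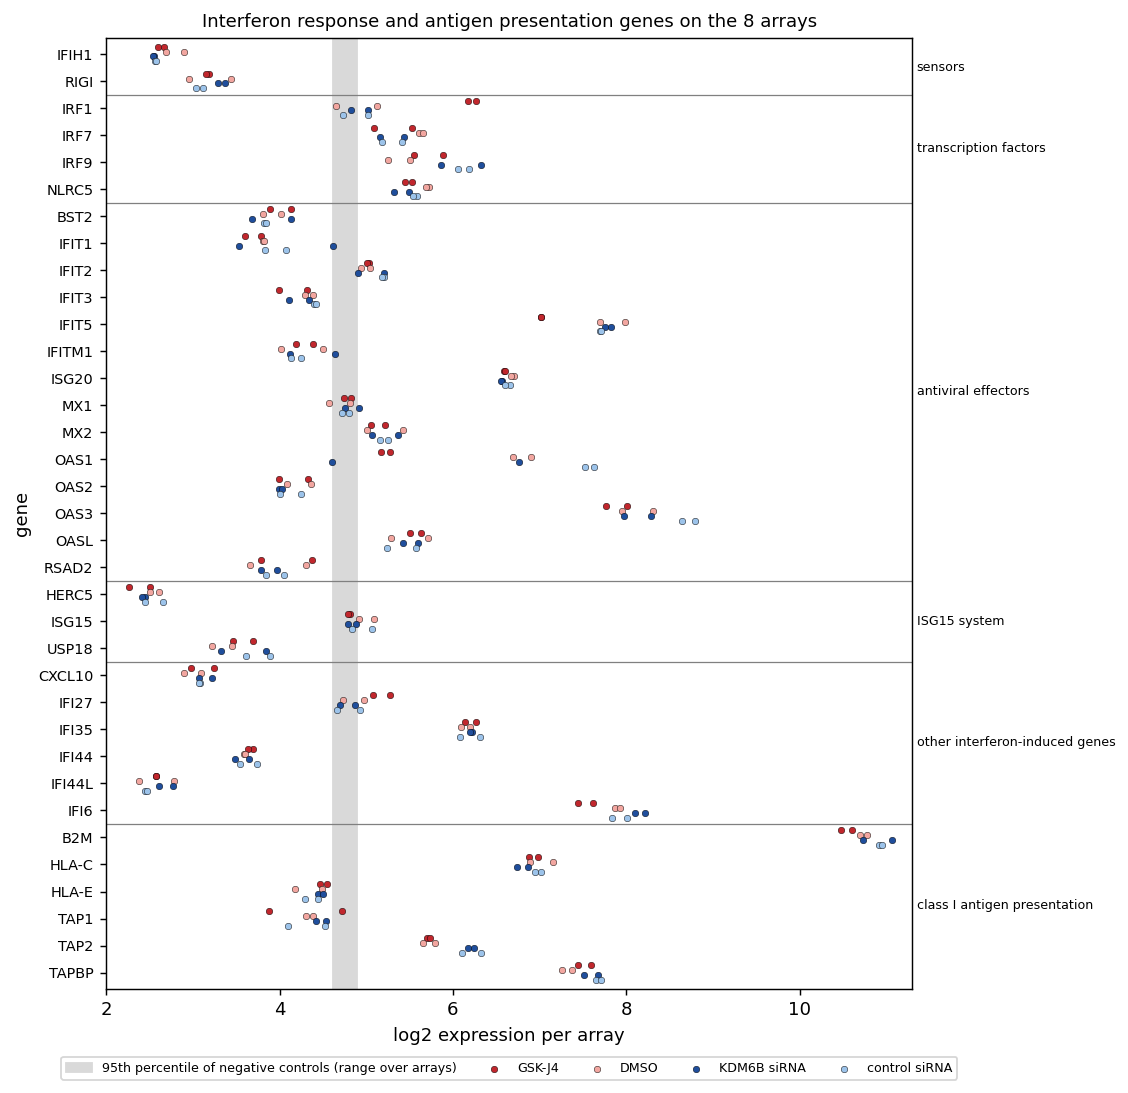
The log2 expression of each of the 35 measured genes on each array (x axis), by gene (y axis) and grouped by role, with 2 points per group and the range of the background threshold, 4.62 to 4.89, in grey. IRF1, IFIT5 and OAS1 show the clearest separation of GSK-J4 from DMSO, while 15 genes stay below the threshold of each of the 8 arrays.

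The sensors were both below background on all 8 arrays. IFIH1 encodes MDA5, which binds long double-stranded RNA, and its log2 values were between 2.54 and 2.90. RIGI encodes RIG-I, which recognises RNA with a triphosphate end, and its values were between 2.95 and 3.44. Differences between groups of genes this dim cannot be read as changes in message.

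Among the transcription factors, IRF1 was higher with GSK-J4. IRF1 is induced by interferon-gamma and in turn activates interferon and MHC class I genes. Its log2 values were 6.17 and 6.27 with GSK-J4 against 4.66 and 5.12 with DMSO, and 5.02 and 4.83 with KDM6B siRNA against 5.02 and 4.73 with control siRNA. Both GSK-J4 arrays were above the other 6, whose values lay near the background threshold (7 of all 8 arrays passed it). The difference was 1.33 ± 0.18 on the log2 scale (SE, 2 arrays each), a fold of 2.52 with GSK-J4 over DMSO, with an adjusted p of 0.00979 by limma over all genes. With KDM6B siRNA the difference was 0.05 (95% confidence interval -0.37 to 0.47). The difference between these effects was 1.28 ± 0.26 and did not pass (adjusted p = 0.0759 by limma). It was 1.38 without KDM6B siRNA replicate 1 and 1.19 without KDM6B siRNA replicate 2, fits that leave a single KDM6B siRNA array. The rise with GSK-J4 lost its call without GSK-J4 replicate 1 (adjusted p = 0.105), GSK-J4 replicate 2 (0.119) or DMSO replicate 1 (0.095), and in the methods' t-test (0.223). Its size over all settings was between 1.10 and 1.56.

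IRF9, the DNA-binding partner of STAT2, was above background throughout. It read 5.55 and 5.89 with GSK-J4 against 5.26 and 5.51 with DMSO, and 6.32 and 5.86 with KDM6B siRNA against 6.06 and 6.19 with control siRNA. Control siRNA cells were thus above DMSO cells, by 0.74 ± 0.19 (adjusted p = 0.865 by limma), and neither treatment passed the test. IRF7, which amplifies type I interferon production, was between 5.09 and 5.66 on all arrays. It was lower with GSK-J4 by 0.32 ± 0.18 (adjusted p = 0.425 by limma) and differed by 0.003 with KDM6B siRNA. NLRC5, the class I transactivator, was between 5.32 and 5.73. It was lower with GSK-J4 by 0.22 ± 0.12 (adjusted p = 0.420 by limma) and with KDM6B siRNA by 0.16 ± 0.12 (adjusted p = 0.612). The arrays did not overlap for IRF7 with GSK-J4 or for NLRC5 with either treatment. This held for 54.1% of all genes with GSK-J4 and 41.9% with siRNA.

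**Figure D2:**
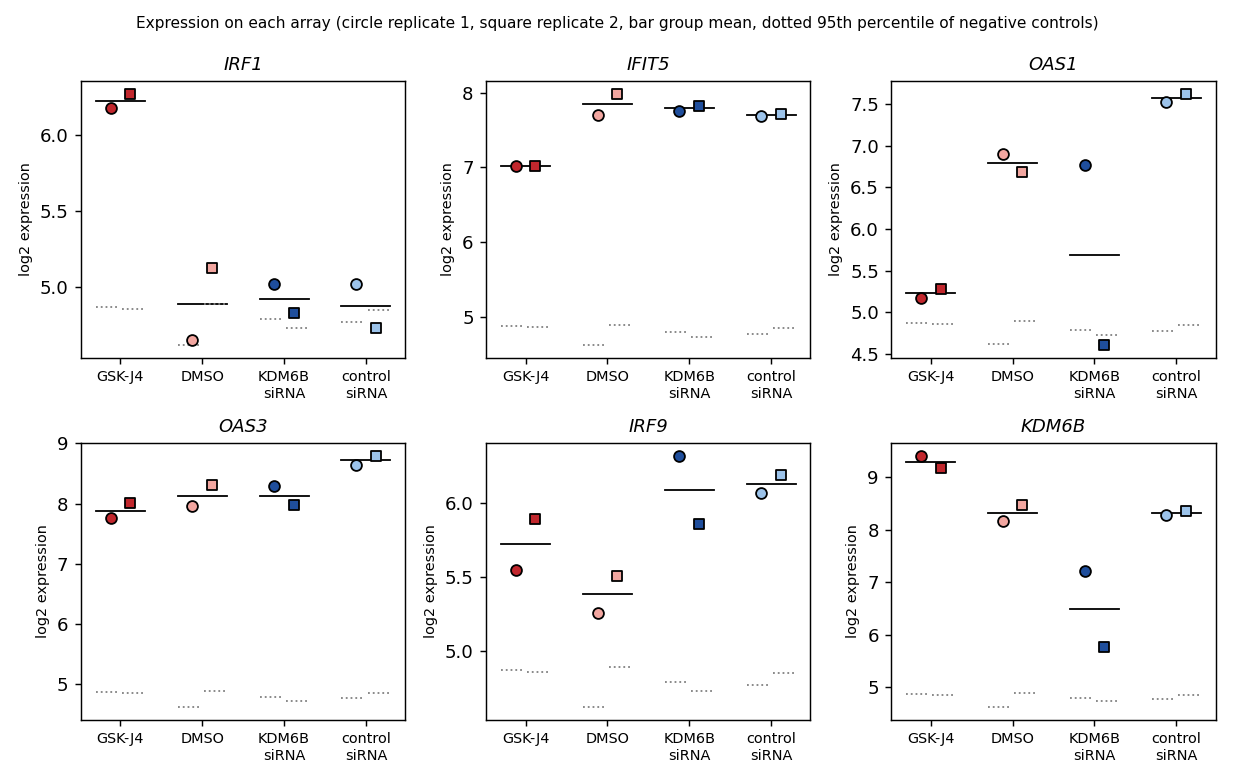
Log2 expression of IRF1, IFIT5, OAS1, OAS3, IRF9 and the targeted gene KDM6B on each array (y axes, with different ranges) by group (x axes), where circles are replicate 1, squares replicate 2, bars group means and dotted lines the background threshold of each array. IRF1 is high and IFIT5 low on both GSK-J4 arrays, and the KDM6B siRNA arrays are far apart for OAS1 (6.76 and 4.61) and for KDM6B (7.22 and 5.76).

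The antiviral effectors were 14 genes, of which 6 were above background on all arrays and 6 on none. IFIT5, which binds viral RNA ends and is one of the IFIT gene cluster on chromosome 10, was the member that fell with GSK-J4. It read 7.02 and 7.01 with GSK-J4 against 7.70 and 7.99 with DMSO, and 7.76 and 7.83 with KDM6B siRNA against 7.69 and 7.71 with control siRNA. Only the GSK-J4 arrays were low. The difference was -0.83 ± 0.13, a fold of 0.563, with an adjusted p of 0.0176 by limma, and with KDM6B siRNA it was 0.09 (95% confidence interval -0.21 to 0.39). The effects differed by -0.92 ± 0.19, which did not pass (adjusted p = 0.0767 by limma). The difference was -0.95 without KDM6B siRNA replicate 1 and -0.89 without KDM6B siRNA replicate 2, fits that leave a single KDM6B siRNA array. The fall with GSK-J4 was not called once any one GSK-J4, DMSO or control siRNA array was left out (adjusted p = 0.0601 to 0.153), and its size over all settings was between -0.97 and -0.69. The other IFIT genes did not show it. IFIT2 was just above background, between 4.90 and 5.21, with a GSK-J4 difference of 0.03, and IFIT1 and IFIT3 were below background on all arrays. Among these IFIT1 had 1 odd value, 4.62 on KDM6B siRNA replicate 2 against 3.53 to 4.07 on the other 7 arrays. Without KDM6B siRNA replicate 1 its siRNA difference was 0.66, which rests on that single array, and both groups were below background.

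The oligoadenylate synthetases make the second messenger that activates RNase L. OAS1, next to OAS3 in the GRCh38.p14 gene order, varied more over the 8 arrays than any other member, over a range of 3.02 log2 units. It read 5.17 and 5.28 with GSK-J4 against 6.90 and 6.69 with DMSO, and 6.76 and 4.61 with KDM6B siRNA against 7.52 and 7.62 with control siRNA. Each treated array was below both of its reference arrays, and KDM6B siRNA replicate 2 was below its background threshold of 4.73. The GSK-J4 difference was -1.57 ± 0.55 (fold 0.337, adjusted p = 0.186 by limma) and the siRNA difference -1.89 ± 0.55 (fold 0.270, adjusted p = 0.171 by limma), so neither was called. The spread came from the KDM6B siRNA pair, 2.16 units apart, the widest of the 35 genes. Without KDM6B siRNA replicate 1 or replicate 2, or without both, the GSK-J4 difference was called at the same size (adjusted p = 0.000134 by limma), as it was on the 4 arrays of its own comparison (adjusted p = 0.0012) and with array weights (adjusted p = 0.00369). The siRNA difference was -2.97 without KDM6B siRNA replicate 1 and -0.81 without KDM6B siRNA replicate 2. In these reduced fits the siRNA group is a single array, whose spread was taken to be that of the other groups. The difference between the effects took opposite signs in them, 1.40 without replicate 1 and -0.76 without replicate 2. It was 0.32 with all arrays, so no order of the OAS1 effects can be given.

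OAS3, whose product makes the longest oligoadenylates of the family, read 7.76 and 8.004 with GSK-J4 against 7.96 and 8.31 with DMSO, and 8.29 and 7.97 with KDM6B siRNA against 8.64 and 8.80 with control siRNA. Both KDM6B siRNA arrays were below both control siRNA arrays, by 0.59 ± 0.18 (fold 0.666, adjusted p = 0.182 by limma), while the GSK-J4 and DMSO arrays overlapped. The siRNA difference was -0.75 without KDM6B siRNA replicate 1, a fit that leaves a single KDM6B siRNA array. It was called in no setting that kept both KDM6B siRNA arrays. OAS2, the third gene of the cluster, was below background on all arrays, between 3.99 and 4.36. OASL, an enzymatically inactive relative, was between 5.24 and 5.71, with differences of 0.07 for GSK-J4 and 0.11 for siRNA.

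The other effectors did not pass in any comparison. ISG20, an exonuclease, was the least variable of the 35 genes, between 6.55 and 6.71. MX2, a dynamin-like protein active against HIV, was between 5.01 and 5.43. MX1, its relative that blocks influenza virus, passed the background threshold on 1 array only, with values between 4.58 and 4.91. BST2 (tetherin), IFITM1 and RSAD2 (viperin) were below background on all arrays, where RSAD2 differed by 0.642 between the DMSO replicates alone.

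ISG15, a ubiquitin-like protein that is among the first genes interferon induces, was at the threshold. It read 4.81 and 4.79 with GSK-J4 against 5.09 and 4.91 with DMSO, and 4.79 and 4.89 with KDM6B siRNA against 4.83 and 5.06 with control siRNA, and was above background on 5 arrays. The ligase HERC5, which attaches ISG15, and the protease USP18, which removes it, were below background on all arrays, at 2.26 to 2.66 and 3.22 to 3.90. Of the 6 other interferon-induced genes, IFI6 encodes a mitochondrial protein that limits apoptosis. It read 7.44 and 7.62 with GSK-J4 against 7.88 and 7.93 with DMSO, and 8.11 and 8.21 with KDM6B siRNA against 7.83 and 8.01 with control siRNA. It lay lower with GSK-J4, by 0.37 ± 0.13 log2 units (adjusted p = 0.187 by limma), and higher with KDM6B siRNA, by 0.24 ± 0.13 (adjusted p = 0.451 by limma), and the effects differed by -0.61 ± 0.18 (adjusted p = 0.222 by limma), so none of these passed. The last was -0.67 without KDM6B siRNA replicate 1, a fit that leaves a single KDM6B siRNA array. IFI27 read 5.08 and 5.27 with GSK-J4 against 4.97 and 4.73 with DMSO, a difference of 0.33 (adjusted p = 0.337 by limma). IFI35 was between 6.08 and 6.31. IFI44, IFI44L and CXCL10, the chemokine that draws T cells through CXCR3, were below background on all 8 arrays, CXCL10 between 2.90 and 3.24.

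None of the 6 class I genes passed with either treatment by limma, where 3.70% of all genes were called with GSK-J4 and 0.605% with siRNA. At an unadjusted p below 0.05 there were 0 in either, where 17.0% and 14.6% of all genes were. The methods' t-test gave 0 in both, unadjusted or adjusted, where 18.8% and 7.11% of all genes were at an unadjusted p below 0.05. With 6 genes, 2 of them below background on all arrays, counts of 0 are no clear departure from these shares. B2M read 10.48 and 10.60 with GSK-J4 against 10.70 and 10.78 with DMSO, and 11.06 and 10.74 with KDM6B siRNA against 10.92 and 10.95 with control siRNA. The difference was -0.20 with GSK-J4 (95% confidence interval -0.52 to 0.13) and -0.04 with siRNA (-0.36 to 0.29). HLA-C, a classical heavy chain, read 6.88 and 6.99 with GSK-J4 against 7.15 and 6.88 with DMSO, and 6.74 and 6.87 with KDM6B siRNA against 6.95 and 7.01 with control siRNA. The siRNA arrays were lower, by 0.18 ± 0.14 (adjusted p = 0.617 by limma). HLA-E, the ligand of the inhibitory NK receptor NKG2A, was below background on all arrays, between 4.17 and 4.55. HLA class I genes are similar in sequence and probes can read more than 1 of them, so these levels are uncertain.

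TAP1 was below background on all arrays, between 3.88 and 4.71, and its GSK-J4 replicates were 0.834 apart, the widest in that group. TAP2 read 5.70 and 5.73 with GSK-J4 against 5.66 and 5.80 with DMSO, and 6.18 and 6.24 with KDM6B siRNA against 6.32 and 6.10 with control siRNA. Cells given either siRNA were thus above both other groups, and control siRNA exceeded DMSO by 0.49 ± 0.13 (adjusted p = 0.865 by limma). TAPBP, the tapasin that bridges TAP and the heavy chain, was between 7.25 and 7.71, with a GSK-J4 difference of 0.20 (95% confidence interval -0.09 to 0.50).

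**Figure D3:**
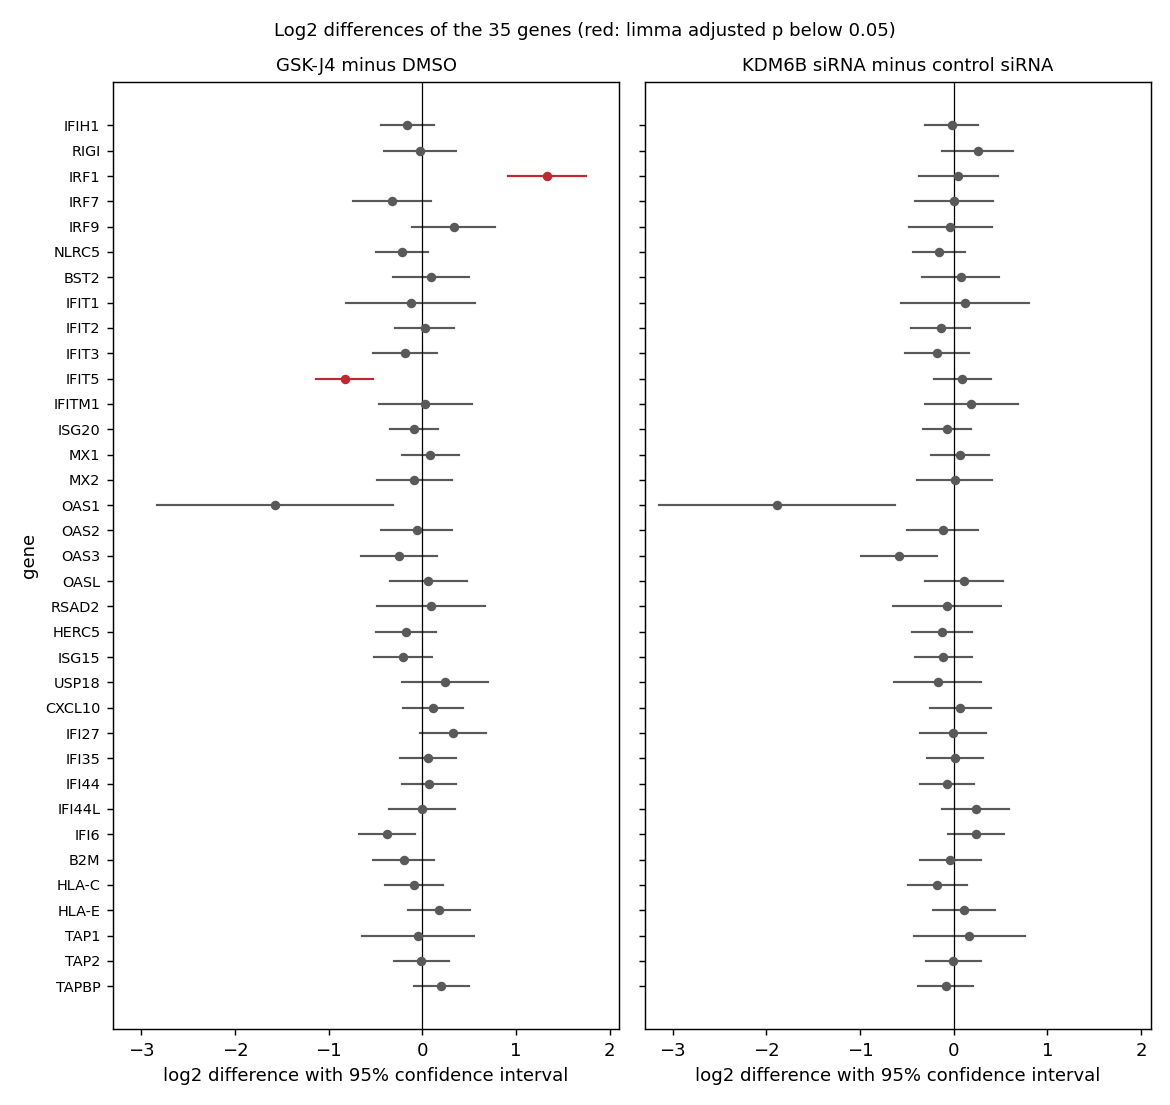
The log2 difference of each of the 35 genes (points, with 95% confidence intervals) for GSK-J4 minus DMSO and for KDM6B siRNA minus control siRNA, with genes past an adjusted p of 0.05 by limma in red. IRF1 at 1.33 and IFIT5 at -0.83 are the genes called with GSK-J4, none is called with siRNA, and the intervals of OAS1 are the widest.

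Counted over the list, GSK-J4 gave 2 called genes of 35, 1 higher and 1 lower, where 3.70% of all genes were called. At an unadjusted p below 0.05 there were 4, IRF1, IFIT5, OAS1 and IFI6, where 17.0% of all genes were. The GSK-J4 and DMSO arrays did not overlap for 16 genes, 6 higher and 10 lower, where this held for 54.1% of all genes. The median difference was -0.03, against -0.02 over all genes. The methods' t-test gave 4 genes unadjusted, where 18.8% of all genes were, and 0 after adjustment, with 0 of all genes as well. KDM6B siRNA gave 0 called genes by limma, where 0.605% of all genes were called, and 2 at an unadjusted p below 0.05, OAS1 and OAS3, where 14.6% of all genes were. The methods' t-test gave 1 gene unadjusted, where 7.11% of all genes were, and 0 adjusted. Its arrays did not overlap those of control siRNA for 11 genes, 4 higher and 7 lower, where this held for 41.9% of all genes, and the median was -0.01, against 0.01 over all genes. The list's share was near that of all genes for calls with GSK-J4 and below it for the other counts of both treatments, and 15 of the 35 genes were below background on every array.

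The difference between the effects was called for 0 genes of the list by limma, where 0.922% of all genes were called, and 3 were at an unadjusted p below 0.05, IRF1, IFIT5 and IFI6, where 12.1% of all genes were. The methods' t-test was not run on it. Control siRNA against DMSO, which differ in transfection, agent and time, causes that cannot be told apart here, gave 0 called genes by limma, where 0.0113% of all genes were called. There were 4 at an unadjusted p below 0.05, where 4.29% of all genes were, and the methods' t-test gave 5 unadjusted, where 7.59% of all genes were, and 0 adjusted. The 4 by limma were all higher with control siRNA: IRF9 by 0.74, OAS3 by 0.59, TAP2 by 0.49 and TAPBP by 0.37. OAS1 was higher as well, by 0.78 (adjusted p = 1.00 by limma), and was called there without KDM6B siRNA replicate 1 or replicate 2, or without both (adjusted p = 0.0404).

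The neuroblastoma identity markers were above background on all arrays for 12 of 12 measured. With KDM6B siRNA their median was lower by 0.59. In that comparison 1 was called, TH, the first enzyme of catecholamine synthesis (-1.04 ± 0.13, adjusted p = 0.0196 by limma), where 0.605% of all genes were. At an unadjusted p below 0.05 by limma there were 6, where 14.6% of all genes were. The arrays did not overlap for 8, all lower, where this held for 41.9% of all genes. With GSK-J4, 0 of these markers were called and 2 were at an unadjusted p below 0.05 by limma, where 3.70% and 17.0% of all genes were. Their summed linear level was 10900 to 15100 with KDM6B siRNA against 18400 to 18600 with control siRNA, and 17700 to 17900 with GSK-J4 against 18900 to 19500 with DMSO. Of 15 leukocyte markers 6 were above background on all arrays and 5 on none, with CD3E, CD2 and MS4A1 among the 5, and PTPRC passed on 2 arrays. Their summed level was 622 to 673 with GSK-J4 against 672 to 731 with DMSO, and 649 to 650 with KDM6B siRNA against 648 to 652 with control siRNA. Among the 15 leukocyte markers 1 was called with GSK-J4, where 3.70% of all genes were, and 0 with siRNA, where 0.605% were. The marker called was CD14, the lipopolysaccharide co-receptor, lower with GSK-J4 (-0.66 ± 0.13, adjusted p = 0.0335 by limma). It read 5.61 and 5.62 with GSK-J4 against 6.24 and 6.32 with DMSO, and 5.56 and 5.81 with KDM6B siRNA against 5.71 and 5.64 with control siRNA. Only the DMSO arrays stood apart, with control siRNA also below DMSO (log2 difference -0.60, adjusted p = 0.605 by limma). The CD14 call was lost with a replicate block (adjusted p = 0.0564) and without any one GSK-J4, DMSO or control siRNA array (0.0904 to 0.221), and that of TH without any one of those arrays (0.0737 to 0.267). In the remaining marker lists no gene was called by limma in either treatment: 7 of 9 fibroblast and endothelial markers and 3 of 5 epithelial markers were above background on all arrays. The summed level of the fibroblast and endothelial markers was 1620 to 2320 with KDM6B siRNA against 1200 to 1260 with control siRNA, and 834 to 854 with GSK-J4 against 1100 to 1180 with DMSO, so the groups did not overlap and the treatments lay on opposite sides. Among them the matrix proteoglycans DCN and LUM differed by 1.19 and 0.96 log2 units with siRNA (adjusted p = 0.163 and 0.25 by limma) and by -0.79 and -0.92 with GSK-J4 (0.283 and 0.209). The epithelial markers summed to 216 to 235 with KDM6B siRNA against 185 to 204 with control siRNA, and to 199 to 216 with GSK-J4 against 200 to 222 with DMSO. At an unadjusted p below 0.05 by limma there were 3 of the 9 with GSK-J4 and 2 with siRNA, and 0 of the 5 with GSK-J4 and 1 with siRNA. Of all genes 17.0% were with GSK-J4 and 14.6% with siRNA. The methods' t-test gave 0 in both lists after adjustment. The part of these markers in the results was not tested.

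The rest of the pathway was read from further lists, starting with the ligands and receptors. Their counts stand against 3.70% of all genes called with GSK-J4 and 0.605% with siRNA, and against 17.0% and 14.6% at an unadjusted p below 0.05. Of 15 interferon genes 9 were below background on all arrays, interferon-gamma (IFNG) among them, and 3 were above on all, the lambda interferons IFNL1, IFNL2 and IFNL3. IFNL2 and IFNL3 are near-identical copies, so their probes may read each other, and IFNL1 is a more distant relative. None was called by limma, with 1 at an unadjusted p below 0.05 for GSK-J4 and 0 for siRNA, and the methods' t-test gave 0 for both unadjusted or adjusted. Of 18 receptor and JAK-STAT genes 16 were above background on all arrays, so the receptors' messages were present, and JAK2 and PTPN6 were above on none. None of the 18 was called, with a lowest adjusted p of 0.107 for GSK-J4 and 0.110 for siRNA by limma. At an unadjusted p below 0.05 there were 7 of the 18 for GSK-J4, a larger share than the 17.0% of all genes, and 3 for siRNA, near the 14.6% of all genes. JAK2 and PTPN6 are among the 7, and JAK2 gave the adjusted p of 0.107. Both were below background on every array, so their differences cannot be read as changes in message. The others of the 7 were above background on all arrays and higher with GSK-J4. The differences were 0.69 for IRF2BP2, 0.57 for JAK1, 0.435 for IFNGR1, 0.38 for PTPN2 and 0.31 for STAT3. The median difference of the 18 was 0.19 with GSK-J4 and 0.06 with siRNA, and the methods' t-test gave 3 and 0 unadjusted and 0 adjusted. The ligand and receptor genes share the arrays of the members and are no separate sample.

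Further nucleic acid sensing genes numbered 22, of which 13 were above background on all arrays and 7 on none. MYD88, the adaptor of most Toll-like receptors, was the gene called. It read 6.89 and 6.92 with GSK-J4 against 7.47 and 7.63 with DMSO, a difference of -0.65 ± 0.14 (adjusted p = 0.0465 by limma), and 7.91 and 7.93 with KDM6B siRNA against 7.55 and 7.86 with control siRNA. The MYD88 call was lost with a replicate block (adjusted p = 0.0592), with a mean-dependent prior (0.0514) and without any one GSK-J4, DMSO or control siRNA array (0.0765 to 0.279). The 1 call of 22 with GSK-J4 stands against 3.70% of all genes. With siRNA 0 of the 22 were called by limma, where 0.605% of all genes were. At an unadjusted p below 0.05 there were 3 with GSK-J4 and 5 with siRNA, where 17.0% and 14.6% of all genes were. The methods' t-test gave 0 in both after adjustment.

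Of 72 other interferon-stimulated genes 35 were above background on all arrays and 30 on none, and 2 were called with GSK-J4, both higher, a smaller share than the 3.70% of all genes. WARS1, the tryptophanyl-tRNA synthetase, read 11.57 and 11.56 with GSK-J4 against 9.97 and 10.04 with DMSO, and 10.02 and 10.54 with KDM6B siRNA against 10.32 and 10.27 with control siRNA. The difference with GSK-J4 was 1.56 ± 0.17 (fold 2.95, adjusted p = 0.00368 by limma). The WARS1 effects differed between treatments by 1.57 ± 0.24 (adjusted p = 0.0297 by limma). LAMP3, a lysosomal protein of mature dendritic cells, read 5.36 and 4.84 with GSK-J4 against 3.99 and 3.84 with DMSO, where it was below background, and only 1 GSK-J4 array passed the threshold. The limma difference was called (adjusted p = 0.0202). With its DMSO values raised to their thresholds, LAMP3 was 1.27-fold higher with GSK-J4. This is no firm lower bound, because GSK-J4 replicate 2 was itself below its threshold. The list's median was 0.01 with GSK-J4 and -0.02 with siRNA. With siRNA 0 were called by limma, where 0.605% of all genes were, and 0 by the methods' t-test after adjustment. At an unadjusted p below 0.05 there were 9 of the 72 with GSK-J4 and 7 with siRNA. Both are smaller shares than the 17.0% and 14.6% of all genes. The GSK-J4 call was lost for WARS1 without any one GSK-J4 or DMSO array (adjusted p = 0.0581 to 0.0688 by limma), and for LAMP3 without any one GSK-J4, DMSO or control siRNA array (0.0539 to 0.158). The difference of the WARS1 effects was not called without any one of those arrays (0.160 to 0.190) or with a replicate block (0.0529).

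In the wider antigen presentation machinery 15 of 17 further class I genes were above background on all arrays. ERAP1, the aminopeptidase that trims peptides for class I, read 8.52 and 8.59 with GSK-J4 against 7.32 and 7.53 with DMSO, and 8.01 and 8.33 with KDM6B siRNA against 7.59 and 7.77 with control siRNA. All treated arrays were above their reference arrays. The GSK-J4 difference was 1.13 ± 0.15 (fold 2.19, adjusted p = 0.00949 by limma), and the siRNA difference was 0.49 ± 0.15 (adjusted p = 0.20 by limma) and did not pass. The GSK-J4 call was lost without any one GSK-J4 or DMSO array (adjusted p = 0.0673 to 0.115). ERAP1 was the 1 gene of these 17 called with GSK-J4, where 3.70% of all genes were. It was also the 1 at an unadjusted p below 0.05, where 17.0% of all genes were. With siRNA 0 of the 17 were called by limma, where 0.605% of all genes were. At an unadjusted p below 0.05 there were 3 with siRNA, where 14.6% of all genes were. The methods' t-test gave 0 in both after adjustment. Of 12 class II genes 3 were above background on all arrays, CD74, HLA-DQA1 and HLA-DOA. None of the 12 was called by limma, and the methods' t-test gave 0 after adjustment. At an unadjusted p below 0.05 there were 1 for GSK-J4 and 0 for siRNA, against the same 17.0% and 14.6% of all genes.

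**Figure D4:**
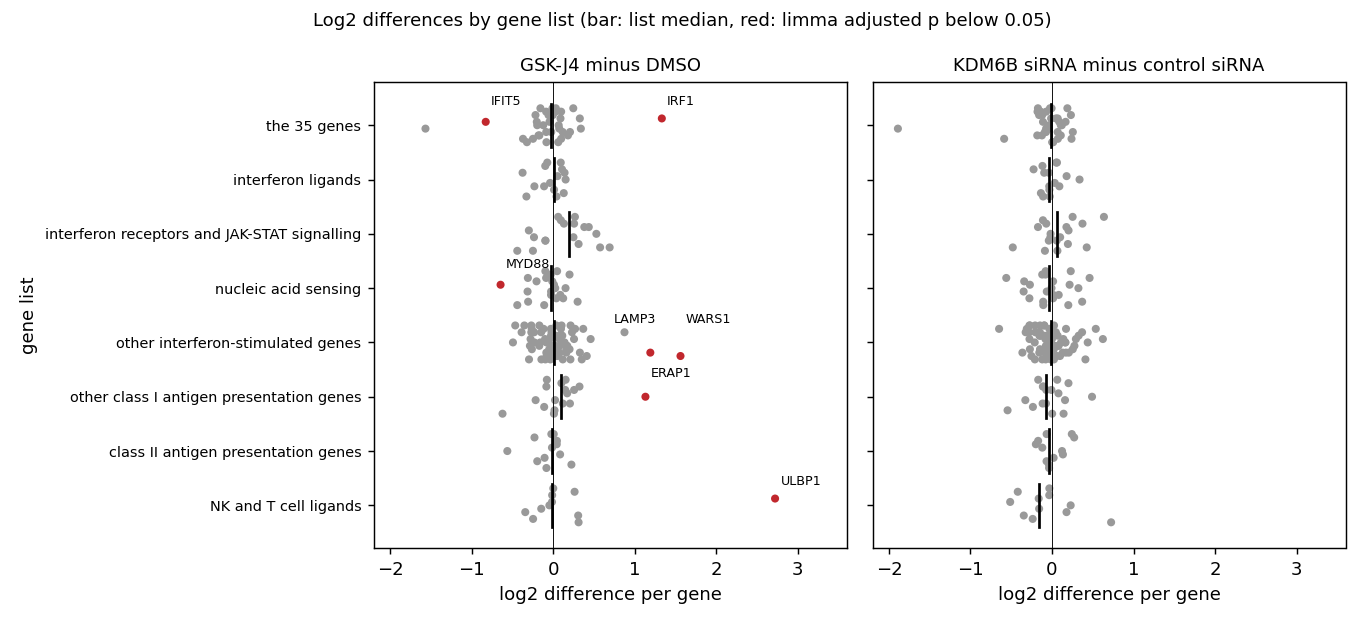
The log2 difference of every gene (points) in the list of 35 and in 7 further lists (y axis) for GSK-J4 minus DMSO and for KDM6B siRNA minus control siRNA, with the list median as a bar and genes past an adjusted p of 0.05 by limma in red and named. The medians run up to 0.19 with GSK-J4, for the receptor and JAK-STAT list, and down to -0.16 with siRNA, for the NK and T cell ligands, and ULBP1 lies at 2.72 with GSK-J4. LAMP3 is drawn at its fitted value although it was below background with DMSO.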

How the data were processed

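RNA of BE2C cells was hybridised to 8 Clariom S arrays in 4 groups of 2, and groups were taken from the labels. The authors deposited expression as log2 values, 1 for each probe set on each array, a scale read from their range (1.69 to 13.4). The submitters' processing notes name GCOS, and the sources used here give no background correction, normalization or summarization step. Array medians were 6.16 to 6.20, so the values were on a common scale and a change in total RNA per cell would not show. Fewer cells of a type and less RNA per cell cannot be told apart. Array signals have no depth in counts, and the number of arrays limits precision.

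Of 24351 probe sets 21448 were for transcripts, and 17709 had 1 gene symbol in the platform annotation, 0 several and 3739 none. The probe set with the highest mean stood for a gene. The platform's design build is not named, so positions are given only for RefSeq promoters. Groups were compared with limma 3.58.1 (lmFit, eBayes, two-sided, R 4.3.3) on the deposited log2 values of all 8 arrays, with 1 coefficient per group, 4 residual and 4.18 prior degrees of freedom, and Benjamini-Hochberg adjustment over 17687 genes at 0.05. Where a gene was below background on both arrays of a group, its values there were raised to the thresholds of those arrays before the fold was taken. That fold is a lower bound only where both arrays of the other group were above background. Tested on simulated data for GSK-J4 against DMSO over 17687 genes, the fit recovered 91 of 100 genes changed by 1 log2 unit and 98 of 100 changed by 2, with 17 false calls. The simulated arrays of a gene had the same spread in every group, whereas the KDM6B siRNA arrays here lay further apart than the others. These rates therefore need not hold for the real arrays.

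The members and lists were chosen with earlier results of these data known. Every member is named, and values on every array are given for members past the threshold, for the 4 with the largest difference per comparison among those above background in a compared group, and for KDM6B; from other lists up to 4 called genes per comparison are named. IFNG, the lambda interferons, JAK2, PTPN6, the class II genes, CD3E, CD2, MS4A1, PTPRC, DCN and LUM, and array values of B2M, ISG15 and IFI27, were added after values were seen. The receptor and JAK-STAT genes IRF2BP2, JAK1, IFNGR1, PTPN2 and STAT3 were also named after values were seen. Alternatives covered a background filter, quantile normalization, median centring, the mean of probe sets, a mean-dependent prior, array weights, a replicate block, each array left out, only the 4 arrays of a comparison and the methods' t-test, and, added after seeing the data, leaving out both KDM6B siRNA arrays.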

Additional observations from a re-analysis of the deposited data

Results flagged for a closer look

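Among the genes of the marker lists and further lists, 3 were called in the difference itself, the GSK-J4 effect minus the KDM6B siRNA effect, by limma. Over all genes 163 of 17687 (0.922%) were called in that test. ULBP1 had a difference of effects of 2.88 ± 0.39 log2 units (adjusted p = 0.0194), with 7.82 and 8.43 for GSK-J4 against 5.72 and 5.10 for DMSO, and 4.94 and 5.46 for KDM6B siRNA against 5.43 and 5.30 for control siRNA. WARS1 had a difference of effects of 1.57 ± 0.24 (adjusted p = 0.0297), its rise being with GSK-J4. TH had a difference of effects of 1.05 ± 0.18 (adjusted p = 0.0419), with 9.16 and 9.14 for GSK-J4 against 9.19 and 9.11 for DMSO, and 7.30 and 7.11 for KDM6B siRNA against 8.18 and 8.31 for control siRNA. Over the alternatives the adjusted p was 0.00306 to 0.147 for ULBP1, 0.000684 to 0.190 for WARS1 and 0.00324 to 0.235 for TH, and each lost its call when any GSK-J4, DMSO or control siRNA array was left out.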

How the results depend on the processing

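With 2 arrays per group the calls depended on the settings, and the KDM6B siRNA pair widened the shared estimate of the spread. Of the comparisons of named genes followed under other settings, 350 kept their direction and side of the threshold, 75 lost the call, 16 gained it and 0 reversed. OAS1 in the difference of effects was not among those comparisons, and its sign did reverse. That difference was 0.32 with all arrays and -0.76 without KDM6B siRNA replicate 2. Called with GSK-J4, CD14, MYD88 and LAMP3 lost the call without any one GSK-J4, DMSO or control siRNA array (adjusted p = 0.0539 to 0.279), and ERAP1 and WARS1 without any one GSK-J4 or DMSO array (0.0581 to 0.115), while ULBP1 kept it whichever array was left out. Called with KDM6B siRNA, TH lost the call without any one GSK-J4, DMSO or control siRNA array (0.0737 to 0.267). The methods' t-test kept none of these calls after adjustment. For GSK-J4 against DMSO, leaving out 1 array gave 0 to 3 members (2 with all arrays) and 55 to 2537 genes (654 with all arrays), the low end without GSK-J4 replicate 2 and the high end without either KDM6B siRNA array. Array weights gave 2116 genes, no KDM6B siRNA arrays 2537, only the 4 arrays 1908, and the methods' t-test 0 members and 0 genes. For KDM6B siRNA against control siRNA, leaving out 1 array gave 0 to 3 members (0 with all arrays) and 0 to 3518 genes (107 with all arrays), the low end without either control siRNA array and the high end without KDM6B siRNA replicate 1. Array weights gave 27 genes, only the 4 arrays 0 and the methods' t-test 0. For control siRNA against DMSO, leaving out 1 array gave 0 to 1 members (0 with all arrays) and 0 to 64 genes (2 with all arrays). Array weights gave 37 genes, no KDM6B siRNA arrays 1 member and 64 genes, only the 4 arrays 27 genes and the methods' t-test 0. For the difference of effects, leaving out 1 array gave 0 to 5 members (0 with all arrays) and 17 to 2486 genes (163 with all arrays). Replicate numbers did not pair the arrays (correlations of replicate deviations 0.0879 for GSK-J4 with DMSO, -0.0357 for the siRNA groups and 0.00629 for the controls). A replicate block gave 439 genes for GSK-J4, 35 for KDM6B siRNA, 2 for control siRNA and 81 for the difference of effects, and kept the 2 members called with GSK-J4, while CD14 (adjusted p = 0.0564) and MYD88 (0.0592) lost theirs with GSK-J4, as TH (0.0844) and WARS1 (0.0529) did in the difference of effects. A mean-dependent prior ended the call of MYD88 (0.0514), and array weights (0.0613) and only the 4 arrays (0.369) that of TH with siRNA. The cause of these shifts was not tested beyond which arrays entered each fit. Signal over background limits what can be said of the 15 members below it on every array.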

Other observations

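Ligands for NK and T cell receptors formed a list of 11 genes, of which 8 were above background on all arrays and 3 on none: MICA, CD274 (PD-L1) and PDCD1LG2 (PD-L2). ULBP1, a stress-induced ligand of the activating NK receptor NKG2D, was the 1 gene called with GSK-J4, by 2.72 ± 0.28 log2 units (fold 6.57, adjusted p = 0.00256 by limma), and both GSK-J4 arrays were above the other 6. With KDM6B siRNA its difference was -0.16 (95% confidence interval -0.80 to 0.47). The median of the 11 was -0.01 with GSK-J4 and -0.16 with siRNA. The 1 call with GSK-J4 stands against 3.70% of all genes, and the 0 by limma with siRNA against 0.605%. At an unadjusted p below 0.05 by limma there were 3 of the 11 with GSK-J4, where 17.0% of all genes were. With siRNA there were 2, where 14.6% of all genes were. The methods' t-test gave 0 in both after adjustment.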
